A study of Homo sapiens with 6 samples.

Results

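The genes described here are 39 interferon-stimulated genes, chosen by symbol as genes known to be induced by interferon, and each was read on the array by the probe sets annotated to that symbol alone, with DDX58 counted as RIGI. Of the 39 listed genes, 38 were matched to 65 probe sets among 19775 genes on the array, and STAT2 had no probe set named with it alone and was not analysed here. The study profiled HMLE cells, which are human mammary epithelial cells made immortal in culture, on 6 Affymetrix Human Genome U133 Plus 2.0 arrays, and its question was how a small molecule, Cmp302, acts on cells that have passed through the epithelial-mesenchymal transition. Cells of the Twist line carried a pBabe-Twist retrovirus, which delivers a transcription factor that drives this transition, and cells of the control line carried a pBabe-shGFP retrovirus. Each line was given the solvent DMSO, or Cmp302 at 5 µM or at 10 µM, with 1 array for each of the 6 groups. The titles and the treatment protocol give these levels, with 6 h of exposure, but in the source names the same samples stand at 2 µM after 4 h and after 8 h, so the step between the levels may be one of dose or of time. All 6 groups shared the culture medium with serum, insulin, hydrocortisone and EGF. Cmp302 is known by its code name only, and no source used here says whether either line is a clone.

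Interferons are secreted proteins by which cells warn each other of infection. Their receptors signal through JAK kinases to transcription factors, IRF9 among them, that bind DNA elements called the ISRE and GAS in the promoters of responding genes. Many of the same genes can also be switched on inside a cell by IRF3, IRF7 or IRF1 downstream of sensors of foreign RNA, without secreted interferon.

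Promoters are shown for the members with the widest increases in the Twist line that the RefSeq table held, IFIT1, IRF1 and IFIT3, and for OAS1 and OAS3, family members of OASL without a 2-fold change. Each sequence runs 5′ to 3′ from 250 bases before to 50 bases after the RefSeq start on GRCh38.p14, and capitals mark letters that match the ISRE core GAAANNGAA, the GAS form TTCNNNGAA or the kB form GGANTTTCC on either strand. IFIT1 lies at chr10:89392373-89392672 on the plus strand, IRF1 at chr5:132490724-132491023 on the minus strand and IFIT3 at chr10:89327747-89328046 on the plus strand. OAS1 lies at chr12:112906712-112907011 and OAS3 at chr12:112938224-112938523, both on the plus strand.
IFIT1: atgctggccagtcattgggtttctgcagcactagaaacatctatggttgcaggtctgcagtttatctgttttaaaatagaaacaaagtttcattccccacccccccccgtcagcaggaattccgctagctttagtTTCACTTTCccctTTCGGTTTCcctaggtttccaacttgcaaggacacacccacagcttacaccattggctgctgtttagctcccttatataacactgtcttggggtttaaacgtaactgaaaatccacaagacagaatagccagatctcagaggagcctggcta
IRF1: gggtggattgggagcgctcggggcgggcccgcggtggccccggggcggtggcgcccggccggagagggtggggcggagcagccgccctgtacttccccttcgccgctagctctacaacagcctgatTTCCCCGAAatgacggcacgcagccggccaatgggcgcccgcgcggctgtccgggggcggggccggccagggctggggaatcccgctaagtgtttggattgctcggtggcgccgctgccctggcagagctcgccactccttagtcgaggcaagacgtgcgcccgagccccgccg
IFIT3: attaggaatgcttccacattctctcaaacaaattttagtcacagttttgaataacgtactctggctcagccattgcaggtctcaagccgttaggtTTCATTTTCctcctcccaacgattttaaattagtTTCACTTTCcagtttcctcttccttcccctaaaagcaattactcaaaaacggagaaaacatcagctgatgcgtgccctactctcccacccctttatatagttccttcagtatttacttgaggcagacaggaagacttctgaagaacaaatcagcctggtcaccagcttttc
OAS1: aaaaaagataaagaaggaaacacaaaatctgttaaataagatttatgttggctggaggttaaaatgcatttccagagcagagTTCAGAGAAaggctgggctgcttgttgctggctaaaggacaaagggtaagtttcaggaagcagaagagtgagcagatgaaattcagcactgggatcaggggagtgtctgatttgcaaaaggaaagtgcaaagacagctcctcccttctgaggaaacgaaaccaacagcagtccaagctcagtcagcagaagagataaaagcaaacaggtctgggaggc
OAS3: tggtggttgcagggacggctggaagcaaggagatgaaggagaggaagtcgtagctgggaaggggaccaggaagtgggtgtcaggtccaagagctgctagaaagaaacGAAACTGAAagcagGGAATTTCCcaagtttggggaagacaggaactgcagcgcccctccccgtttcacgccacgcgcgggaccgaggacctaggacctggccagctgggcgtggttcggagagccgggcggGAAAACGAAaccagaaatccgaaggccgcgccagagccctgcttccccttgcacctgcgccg
IFIT1 held ISRE letters that begin at -115 and -102 from the start, and IFIT3 held them at -155 and -121. IRF1 held no ISRE letters in this window and a GAS match at -124, and OAS1 held a GAS match at -168. OAS3 held ISRE letters at -143 and -12 and a kB match at -129. Of the 39 genes, 31 had a promoter in the table, and IFIT2 and OASL did not. The ISRE core was in 20 of the 31, which is 64.5%, against 8.29% of all 27305 promoters of this length. GAS letters were in 9 of 31, or 29.0%, against 7.88% of all promoters. The kB form GGANTTTCC was in the promoters of OAS3, IFIH1 and RIGI, which is 9.68% of the members against 1.64% of all. A kB form with fewer fixed letters, GGGNNTTCC, was in that of GBP1 alone, which is 3.23% of the members against 6.60% of all. The letters TGATGCAAT, searched as a form of the CARE element that ATF4 binds, were in 0 of 31 member promoters and in 0.264% of all. The ISRE core stood in 2 of 3 promoters of genes higher with Cmp302 at both levels, in both of those higher at 1 level, in 4 of 4 of those lower, and in 11 of 19 of those with no 2-fold change. A match of letters is a description of the window and not a measured binding site.

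Cmp302 was accompanied in the Twist line by higher IFIT1, IFIT2, IFIT3, OASL and IRF1, by lower GBP1, IFIT5, IFI44L, SAMD9 and TRIM22, and by little change in most other members. These are readings of the brightest probe set of each gene, and for RIGI the other probe sets gave larger increases, past 2-fold. The 5 higher genes passed 2-fold, which is 1 on the log2 scale, at both levels, against 4.01% of all genes. At 5 µM they were the 5 members higher than under DMSO, of 30 measured, where 4.26% of all genes were higher. Lower at that level were GBP1 and IFIT5, which are 2 of 30 members, where 5.01% of all genes were lower. At 10 µM, ISG15 and HERC5 joined them, which made 7 of 32 members higher against 8.04% of all genes and 5 lower against 8.46%. A member counts as measured in a comparison where at least 1 of the arrays compared lay above a floor of 3.71 log2 units. This floor is the median of all values. HERC5, RSAD2, CMPK2 and GBP2 thus entered the 10 µM comparison through the treated array. The median change at 10 µM was 0.30 over the 32 measured members and -0.01 over all genes. In the control line 1 of 30 members, GBP6, was higher at each level, against 0.0585% of all genes at 5 µM and 0.200% at 10 µM. Of the same 30 members 0 were lower in the control line, where 0.0668% and 0.259% of all genes were.

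**Figure D1:**
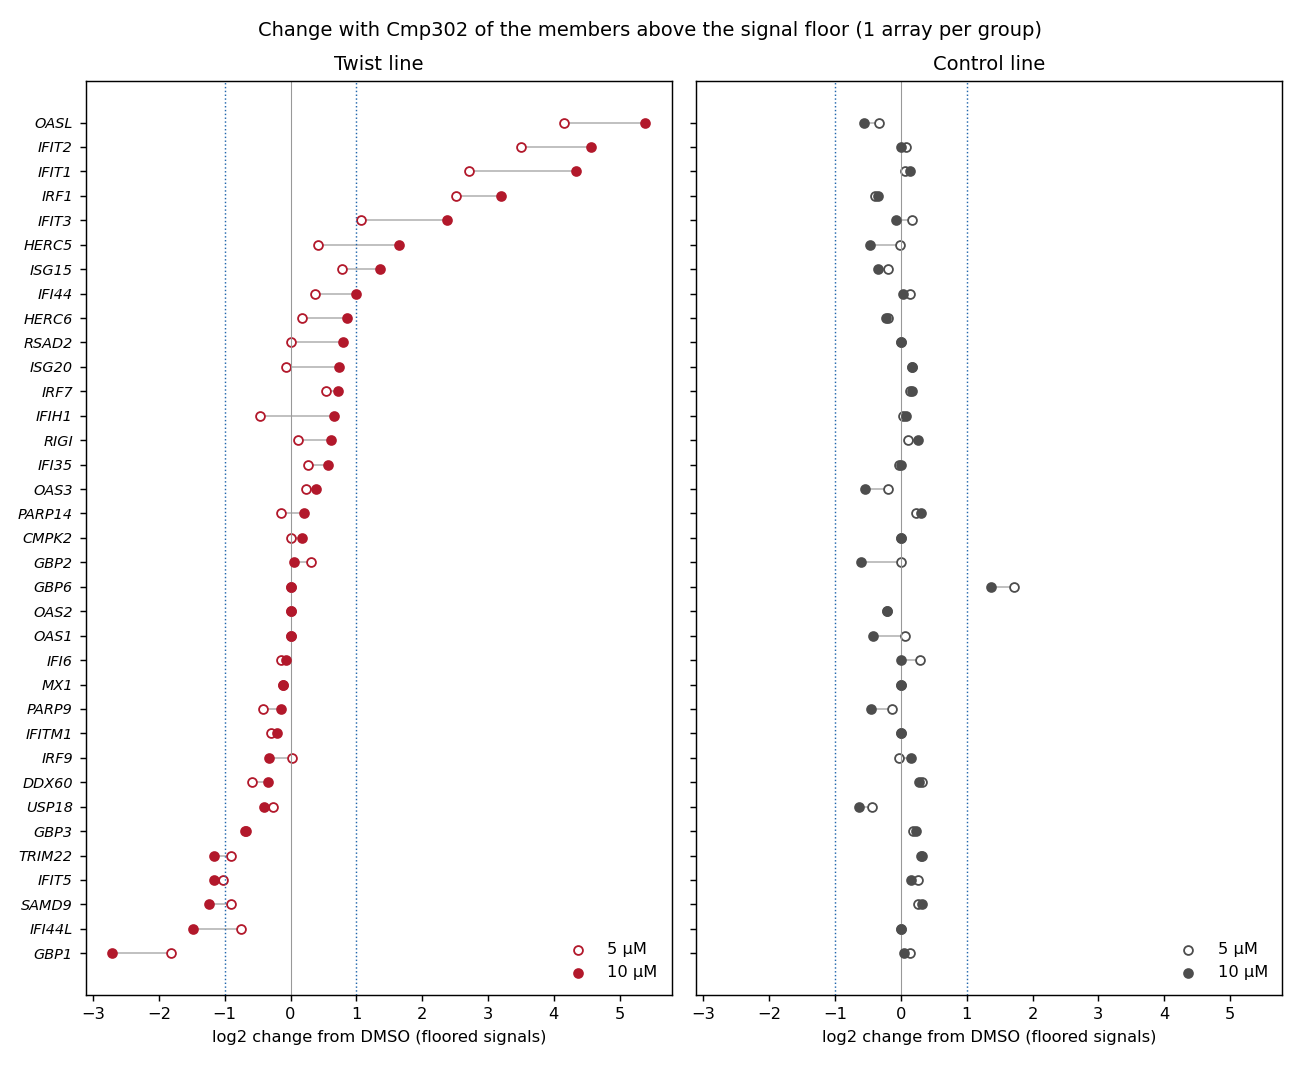
Log2 change from DMSO at 5 µM (open points) and 10 µM (filled points) for the 35 members above the signal floor on any array, in the Twist line (left) and the control line (right), with dotted lines at 2-fold; each point is a difference between 2 arrays and has no error bar. The Twist-line changes at 10 µM run between -2.71 (GBP1) and 5.39 (OASL), and in the control line GBP6 alone passes 2-fold.

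All 6 arrays were alike in their deposited medians, from 3.69 to 3.74 log2 units, and 35 members were above the floor on any array, 25 of them on all 6. MX2, IFI27 and XAF1 were at the floor on every array. A contrast of RNA quality, the signal of 3' probe sets over that of middle ones for GAPDH and ACTB in log2 units, which is larger where labelled copies are shorter, was 0.955, 0.355 and 0.445 in the Twist line and 0.28, 0.45 and 0.835 in the control line under DMSO, 5 µM and 10 µM. The largest value was that of the Twist array under DMSO, on which both Twist comparisons rest. A quality-matched change, from which the part predicted by this contrast with a slope taken from the 3 control-line arrays was subtracted, is given beside the members past 2-fold and for other members in which it turns the direction, among some more. In the control line the contrast was larger at each level of Cmp302, so its slope there cannot be told apart from an effect of Cmp302 in that line. Since each group is 1 array, a difference between arrays cannot be set against replicate spread, and precision is limited by how few arrays there are. In bulk RNA, more RNA per cell and more cells that carry it cannot be told apart.

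The IFIT proteins bind foreign or unmodified RNA and block its translation, and 3 of the 4 family members were higher in treated Twist cells. IFIT1, which recognises RNA without a self-type cap, had log2 signals of 6.42, 9.13 and 10.76 in the Twist line under DMSO, 5 µM and 10 µM, and 9.78, 9.84 and 9.91 in the control line. The DMSO Twist array was thus the low one of the 6, and the Twist array at 10 µM the highest. The change was 6.54-fold at 5 µM and 20.3-fold at 10 µM. IFIT2, which pairs with IFIT1 and IFIT3 in a complex, had 8.17, 11.68 and 12.74 in the Twist line and 10.62, 10.70 and 10.62 in the control line, an increase of 11.4-fold and 23.8-fold. Both treated Twist arrays lay above all 3 control-line arrays, and the Twist DMSO array lay below them. IFIT3, which steadies IFIT1 on RNA, had 9.74, 10.81 and 12.11 in the Twist line and 10.61, 10.78 and 10.53 in the control line, an increase of 2.10-fold and 5.18-fold. At 5 µM the Twist array was level with the control-line arrays, and at 10 µM it lay above them. Quality-matched changes in log2 units were 2.85 and 4.46 for IFIT1, and 3.49 and 4.56 for IFIT2. For IFIT3 they were 0.94, under the 2-fold threshold, and 2.26.

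IFIT5, which binds RNA with a triphosphate end, went the other way on the probe set that reads it. Its log2 signals were 12.37, 11.35 and 11.20 in the Twist line and 10.91, 11.16 and 11.06 in the control line. The Twist DMSO array was the high one, and the treated arrays came down to near the control-line values, a change of -1.02 and -1.17. Another IFIT5 probe set gave 11.24, 11.76 and 11.71 in the Twist line, which is a change of 0.52 and 0.47, so the direction for IFIT5 differed between its probe sets. The chosen probe set and the other both carry a suffix for possible cross-hybridisation. Other probe sets of IFIT2 and IFIT3 went the same way as the ones that read those genes. For IFIT3 the other probe set gave 6.69, 8.45 and 9.84 in the Twist line and 8.34, 7.99 and 7.91 in the control line. In RefSeq's order of protein-coding genes, IFIT1 and IFIT5 are direct neighbours on chromosome 10, as are IFIT2 and IFIT3, with 1 coding gene between IFIT3 and IFIT1.

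**Figure D2:**
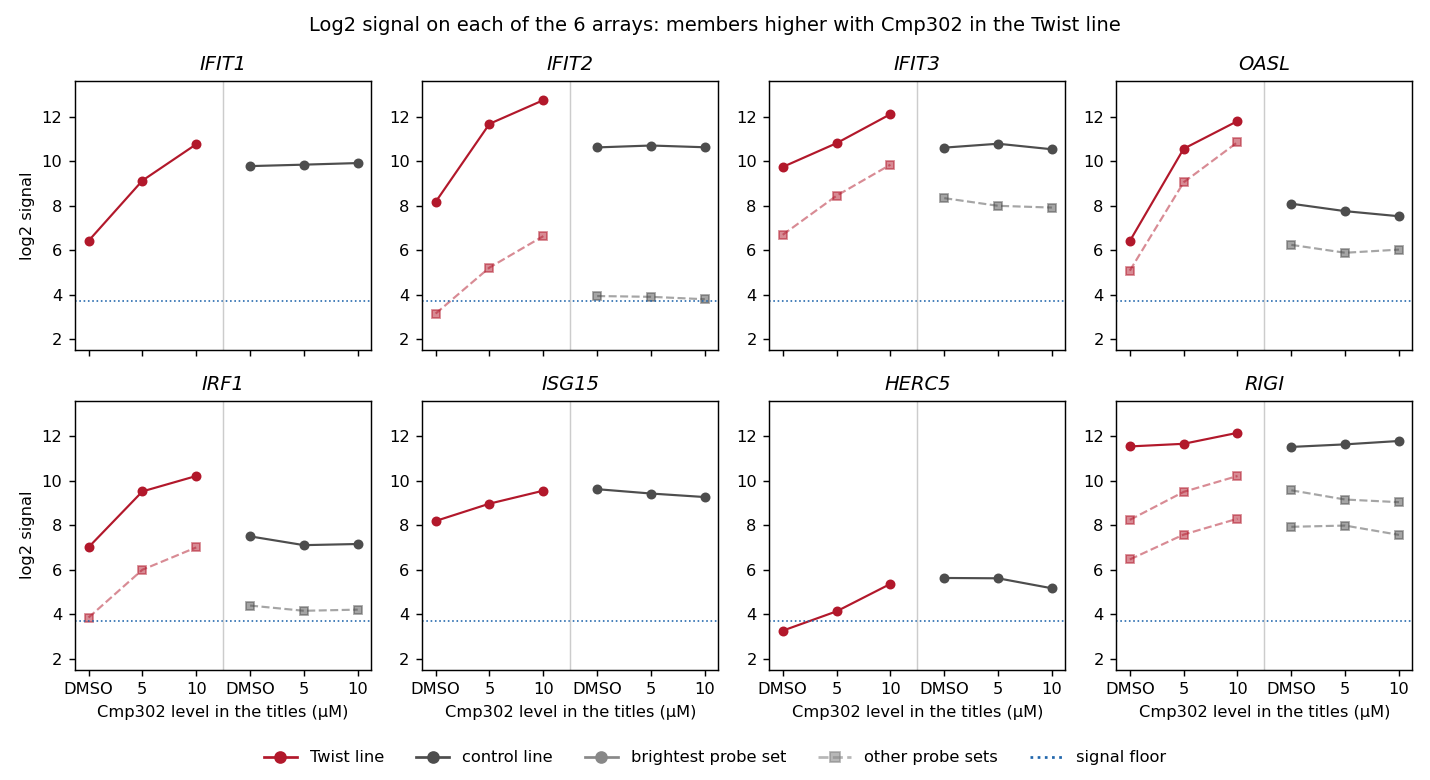
Log2 signal (vertical axis) on each of the 6 arrays, Twist line left and control line right in each panel, over DMSO, 5 µM and 10 µM, for the 7 members higher with Cmp302 in the Twist line and for RIGI. Circles are the brightest probe set, squares the others, and the dotted line is the floor at 3.71; the control-line points of IFIT1 lie between 9.78 and 9.91, while its Twist-line points are 6.42 under DMSO, 9.13 at 5 µM and 10.76 at 10 µM.

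OASL, a member of the oligoadenylate synthetase family that has lost the enzyme activity and aids RIG-I signalling, had the widest increase of all members. Its log2 signals were 6.41, 10.56 and 11.80 in the Twist line and 8.09, 7.75 and 7.52 in the control line. Treated Twist arrays lay above, and the Twist DMSO array below, every control-line array. The increase was 17.7-fold at 5 µM and 42.0-fold at 10 µM, with quality-matched changes of 3.58 and 4.91 log2 units, and the other OASL probe set gave 3.97 and 5.77.

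The 3 catalytic members of that family, which make the messenger that activates RNase L, did not share this. OAS1 was at the floor on all 3 Twist arrays and had 5.91, 5.97 and 5.48 in the control line. OAS3 had 9.47, 9.71 and 9.86 in the Twist line and 11.03, 10.83 and 10.48 in the control line, a Twist-line change of 0.24 and 0.39. The quality-matched changes of OAS3 had the opposite sign, at -0.34 and -0.10, so its direction in the Twist line is not settled. OAS2 was above the floor on the control-line DMSO array only, at 3.92. OAS1, OAS3 and OAS2 lie next to each other on chromosome 12.

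IRF1, a transcription factor that induces many of these genes and is itself induced by interferon and by NF-kB, was the member of the transcription factor group past 2-fold. Its log2 signals were 7.01, 9.52 and 10.21 in the Twist line and 7.50, 7.10 and 7.15 in the control line. Both treated Twist arrays stood above the other 4, among which the Twist DMSO array was the lowest. The increase was 5.69-fold and 9.20-fold, the quality-matched changes 2.21 and 2.95 log2 units, and the other probe set gave 2.15 and 3.15. IRF7, which amplifies the interferon response, had 5.38, 5.92 and 6.10 in the Twist line and 5.26, 5.39 and 5.42 in the control line. Its treated Twist arrays were the highest of the 6 by less than 1 log2 unit. IRF9, a DNA-binding part of the complex that recognises the ISRE, was between 5.17 and 5.74 on all 6 arrays.

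ISG15, a ubiquitin-like modifier, and HERC5, the ligase that attaches it to new proteins, passed 2-fold at 10 µM. ISG15 had log2 signals of 8.19, 8.97 and 9.55 in the Twist line and 9.62, 9.42 and 9.26 in the control line. The Twist array at 10 µM thus came within the control-line range, and the increase was 1.72-fold and 2.57-fold. HERC5 was at the floor in Twist cells under DMSO, with 4.13 and 5.36 at 5 µM and 10 µM, against 5.63, 5.61 and 5.16 in the control line. It too reached the control-line range at 10 µM, at least 3.13-fold above its DMSO array. Quality-matched changes were 0.42 and 1.06 for ISG15 and -0.12 and 1.19 for HERC5. HERC6, a related ligase and the neighbour of HERC5 on chromosome 4, had 5.87, 6.05 and 6.72 in the Twist line and 10.02, 9.82 and 9.79 in the control line. All 3 Twist arrays stayed far below the control line, and the change was 0.18 and 0.85. USP18, which removes ISG15 and dampens the receptor, had 5.24, 4.98 and 4.84 in the Twist line and 6.66, 6.21 and 6.01 in the control line. Its changes of -0.26 and -0.40 became -0.89 and -0.93 when quality-matched, and those of HERC6 became -0.03 and 0.68.

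Among the sensors of foreign RNA, no gene passed 2-fold against DMSO on the probe set that reads it. IFIH1, which encodes MDA5, had 8.46, 8.00 and 9.12 in the Twist line and 9.74, 9.76 and 9.81 in the control line. Its Twist signal was lower at 5 µM and higher at 10 µM than under DMSO, by -0.46 and 0.66, or -0.38 and 0.73 when quality-matched. Another IFIH1 probe set was under the floor on the Twist DMSO array and at least 0.315 and 0.74 higher with Cmp302. A weaker one, near the floor, gave 0 and 0.04. The lower value at 5 µM was thus seen on the brightest probe set only. RIGI, which senses RNA with a triphosphate end, had 11.54, 11.66 and 12.15 in the Twist line and 11.52, 11.63 and 11.78 in the control line on its brightest probe set. That probe set carries a suffix for cross-hybridisation, and the other RIGI probe sets gave larger Twist-line changes. A probe set with a suffix of another kind had 8.24, 9.50 and 10.21 in the Twist line and 9.57, 9.15 and 9.03 in the control line, a change of 1.26 and 1.97. Another without a suffix had 6.46, 7.58 and 8.29 in the Twist line and 7.93, 7.98 and 7.56 in the control line, a change of 1.12 and 1.83. On these probe sets the Twist DMSO array was the lowest of the 6 and the array at 10 µM the highest. DDX60, a helicase linked to RIG-I, had 10.47, 9.88 and 10.13 in the Twist line and 11.01, 11.33 and 11.28 in the control line.

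Lower members with Cmp302 in the Twist line came from several families. GBP1, a GTPase that attacks the membranes around microbes, had 10.78, 8.97 and 8.07 in the Twist line and 9.42, 9.55 and 9.46 in the control line. The Twist DMSO array was the highest of the 6 and both treated Twist arrays were the lowest, at 0.285 and 0.153 of the DMSO signal. Other GBP1 probe sets above the floor gave smaller changes, of -0.62 and -0.90 on one and -0.61 and -1.28 on another, and the quality-matched changes were -1.79 and -2.69. GBP3, a neighbour of GBP1 on chromosome 1, had 10.14, 9.47 and 9.45 in the Twist line and 10.44, 10.62 and 10.67 in the control line. GBP2 was at the floor under DMSO with 4.03 and 3.77 at 5 µM and 10 µM in the Twist line, and had 4.97, 4.96 and 4.36 in the control line. The Twist-line differences of GBP2, at least 0.31 and 0.06, had the opposite sign when quality-matched, at -0.39 and -0.54.

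IFI44L, a protein of poorly known function, had 5.38, 4.63 and 3.90 in the Twist line and was at the floor in the control line. All 3 Twist arrays were above the floor, and the treated ones were lower than the DMSO array, by -0.75 and -1.48. IFI44, its direct neighbour on chromosome 1, had 10.20, 10.58 and 11.19 in the Twist line and 11.01, 11.15 and 11.04 in the control line. Its change of 0.38 and 0.99 was just under the threshold, and another probe set gave 0.02 and 1.71.

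SAMD9, a restriction factor for poxviruses, had 10.82, 9.91 and 9.58 in the Twist line and 11.89, 12.14 and 12.20 in the control line. All 3 Twist arrays lay below the control line, and the treated ones lowest, by -0.91 and -1.24. The other SAMD9 probe set gave -0.28 and -0.71, in the same direction and under the threshold. TRIM22, a ligase that restricts several viruses, had 9.71, 8.81 and 8.55 in the Twist line and 9.21, 9.53 and 9.51 in the control line. Its Twist DMSO array was the highest of the 6 and the treated Twist arrays were the lowest, by -0.90 and -1.16. Quality-matched changes at 10 µM were -0.98 for SAMD9 and -0.93 for TRIM22, both just under the threshold, and -1.07 for IFIT5. For IFI44L, at the floor on every control-line array, the matching could not change the -1.48.

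**Figure D3:**
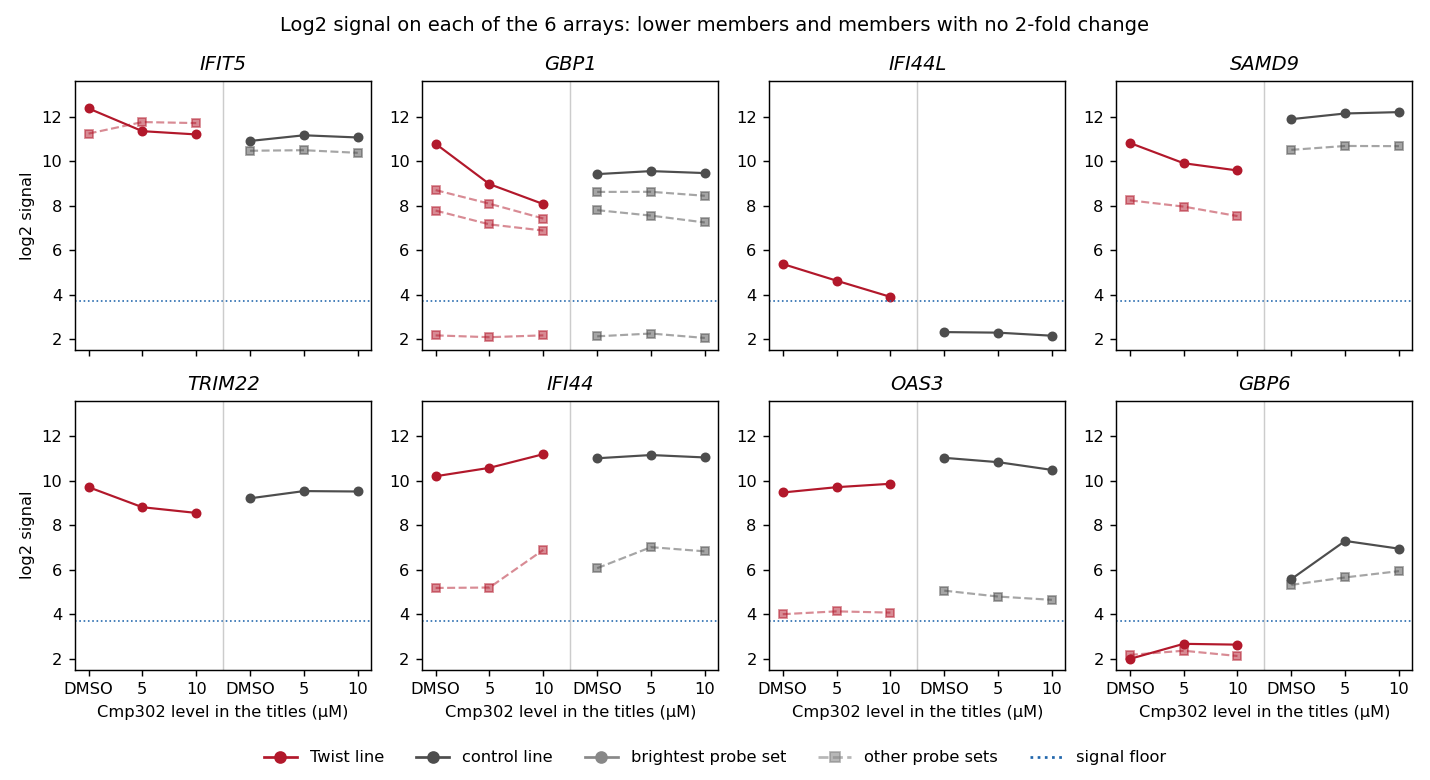
Log2 signal (vertical axis) on each of the 6 arrays, Twist line left and control line right in each panel, over DMSO, 5 µM and 10 µM, for the 5 members lower with Cmp302 in the Twist line and for IFI44, OAS3 and GBP6. Circles are the brightest probe set, squares the others, and the dotted line is the floor at 3.71; GBP1 reaches 8.07 in Twist cells at 10 µM, against 10.78 under DMSO, and GBP6 is above the floor in the control line alone.

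On the probe sets that read them, the remaining members showed no 2-fold change with Cmp302 in the Twist line. There were 23 such genes, 20 of them above the floor on a Twist array, and their changes lay between -0.67 and 0.54 at 5 µM and between -0.69 and 0.99 at 10 µM. RIGI is counted here by its brightest probe set, though its others passed 2-fold at both levels. Another IFI44 probe set passed it at 10 µM, at 1.71. At 10 µM, nearest to the threshold from inside and outside were IFI44 at 0.99 and ISG15 at 1.36 on the higher side, and GBP3 at -0.69 and TRIM22 at -1.16 on the lower side. At 5 µM, IFIT3 at 1.07 and IFIT5 at -1.02 were just past it. GBP6, a guanylate-binding protein found in epithelia, was at the floor on all Twist arrays and had 5.58, 7.29 and 6.94 in the control line. The control-line arrays with Cmp302 were higher than the DMSO array by 1.72 and 1.37, whereas the other probe set gave 5.32, 5.65 and 5.93. IFI35, a partner of NMI, had 7.20, 7.47 and 7.77 in the Twist line and 5.53, 5.49 and 5.53 in the control line. MX1, a GTPase that traps viral ribonucleoproteins, had 4.30, 4.18 and 4.18 in the Twist line and was at the floor in the control line. ISG20, an exonuclease, had 4.35, 4.29 and 5.08 in the Twist line and 5.44, 5.61 and 5.60 in the control line. RSAD2, which makes a chain-terminating nucleotide, was above the floor on the Twist array at 10 µM only, at 4.51. IFI6, IFITM1, CMPK2, PARP9 and PARP14 had differences from DMSO between -0.41 and 0.20 in the Twist line. For PARP9 the quality-matched differences were wider, at -0.90 and -0.56. At 5 µM those of ISG20 and PARP14 had the opposite sign, 0.09 against -0.06 and 0.15 against -0.14.

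Between 10 µM and 5 µM in the Twist line, a comparison that leaves out the DMSO array, 6 of 32 members were higher past 2-fold, against 0.593% of all genes. These were IFIT1 at 1.63, IFIT3 at 1.30, OASL at 1.24, HERC5 at 1.23, IFIH1 at 1.12 and IFIT2 at 1.06 log2 units. For IFIH1 another probe set had 4.03 at 5 µM and 4.45 at 10 µM, a step under the threshold. No member was lower past 2-fold, a count of 0 of 32 against 0.508% of all genes, and the median over members was 0.26 against -0.01 over all genes. IRF1, at 0.69, and ISG15, at 0.58, lay under the threshold between these arrays.

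A linear fit over the levels of each line, with limma's moderated test and Benjamini-Hochberg adjustment over 12478 genes, tested the trends. Its residual spread comes from departures from a straight line with 2 residual degrees of freedom and not from replicates, and it uses the same arrays as the 2-fold counts. Of the 32 members in the fit, 9 rose with level in the Twist line, against 10.8% of all genes, and 5 fell, against 11.4%. IFIT1 rose by 2.17 ± 0.16 log2 units per level (SE, adjusted p = 0.00578, limma). OASL rose by 2.70 ± 0.36 (adjusted p = 0.0146) and IFIT2 by 2.29 ± 0.30 (adjusted p = 0.0145). IFIT3 rose by 1.19 ± 0.11 and IRF1 by 1.60 ± 0.24. ISG15 at 0.68 ± 0.10, HERC5 at 0.82 ± 0.13, IFI44 at 0.50 ± 0.10 and IRF7 at 0.36 ± 0.09 also rose. Among the members that fell, GBP1 changed by -1.35 ± 0.15 (adjusted p = 0.0108) and IFI44L by -0.74 ± 0.06 (adjusted p = 0.00621). SAMD9 at -0.62 ± 0.11, IFIT5 at -0.58 ± 0.14 and TRIM22 at -0.58 ± 0.13 fell as well. HERC6 and RIGI missed the threshold in the limma fit, with adjusted p = 0.0527 and 0.0627. Every fit without 1 array had 1 residual degree of freedom left, and the fit without the Twist array at 5 µM still called members. In the fits without any 1 of the other arrays, limma called 0 of 32 members and 0% of all genes. An unadjusted p under 0.05 in these limma fits was reached by 14 to 16 members and by 1684 to 5280 of all 12478 genes.

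In the control line the limma fit called 0 of 32 members, where 0% of all genes were called in either direction. An unadjusted p under 0.05 in that fit was reached by 4 members and by 937 of 12478 genes. The slopes there were 0.07 ± 0.16 for IFIT1, -0.28 ± 0.36 for OASL and -0.17 ± 0.24 for IRF1 (SE). The difference of slopes between the lines, Twist minus control, was called for 4 of 32 members. IFIT1 at 2.10 ± 0.23 (adjusted p = 0.0361, limma) and IFIT3 at 1.22 ± 0.15 (adjusted p = 0.0386) had higher slopes in the Twist line, where 0.729% of all genes were called in that direction. IFI44L at -0.74 ± 0.08 (adjusted p = 0.0375) and GBP1 at -1.38 ± 0.21 (adjusted p = 0.0480) had lower slopes there, against 0.793% of all genes. IFI44L lay under the floor in the control line, so its slope there is 0 by construction. Those arrays also add no spread to its standard errors, in this test or in the Twist-line trend. For OASL the difference was 2.98 ± 0.51, for IFIT2 2.28 ± 0.43 and for IRF1 1.77, and these missed the threshold with adjusted p = 0.0506, 0.0543 and 0.0543 in the limma fit. ISG15 and HERC5, at 0.86 and 1.06, missed it as well. Over fits without 1 array, limma called 0 to 8 members in this difference. The 8 came without the Twist array at 5 µM, where 17.6% of all genes were called, and the 0 where 0% were. The GBP1 call was lost with the deposited scaling and with the median over probe sets.

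**Figure D4:**
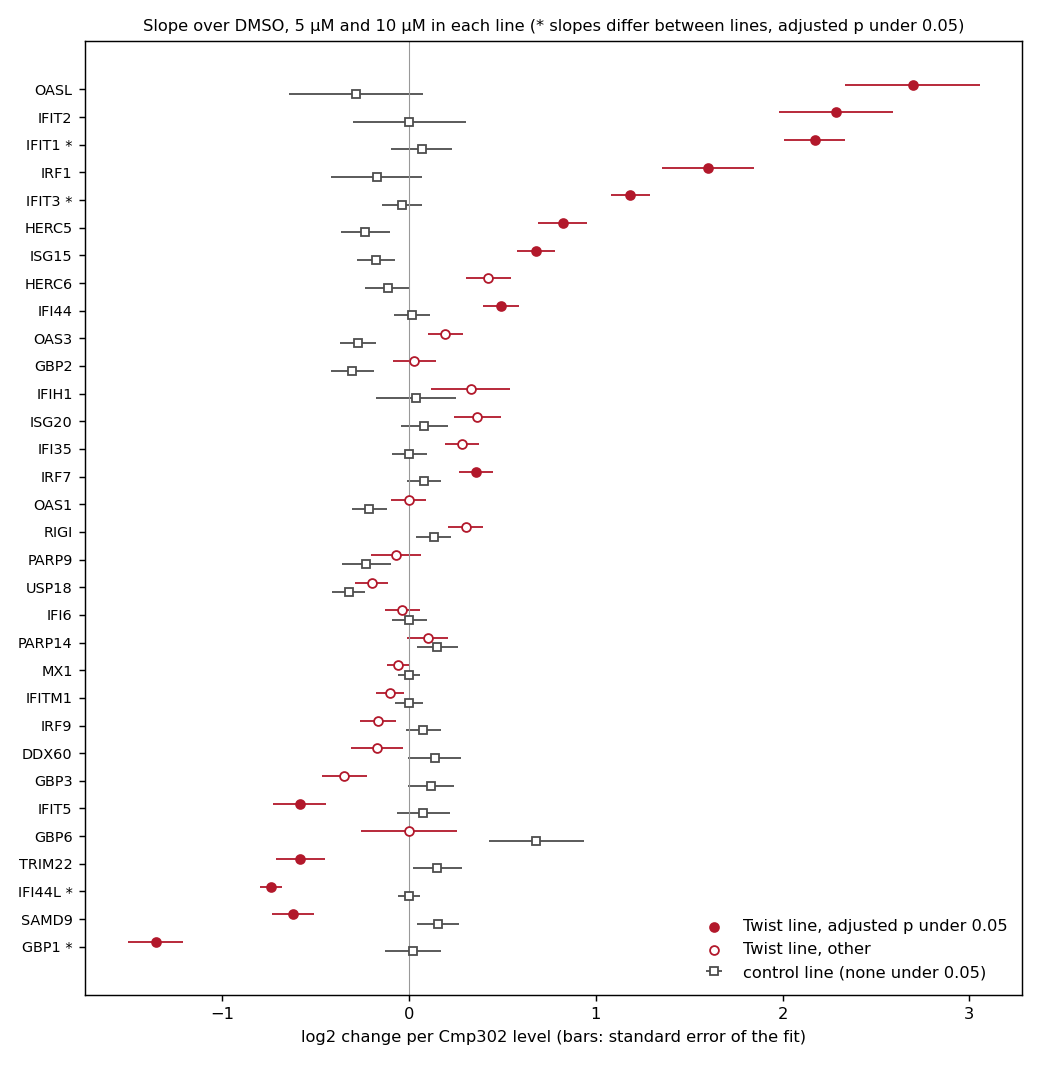
Slope in log2 units per Cmp302 level over DMSO, 5 µM and 10 µM for the 32 members in the fit, with bars for the standard error of the fit; circles are the Twist line (filled where called by limma) and squares the control line. Asterisks mark IFIT1, IFIT3, IFI44L and GBP1, whose slopes differ between the lines; the 9 filled circles right of 0 run up to 2.70 for OASL, and no control-line slope was called.

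Under DMSO, more members were lower than higher in the Twist line relative to the control line. Of 33 measured members 14 were lower past 2-fold, against 13.5% of all genes, and 4 were higher, against 11.9%. The median difference was -0.54 over the members and -0.00 over all genes. Members of several families were among those lower, with HERC6 at -4.15, IFIT1 at -3.36, IFIT2 at -2.45 and OASL at -1.68. OAS3 at -1.56, ISG15 at -1.43, USP18 at -1.42, IFIH1 at -1.28, ISG20 at -1.09 and SAMD9 at -1.07 were lower too. OAS1, HERC5, GBP6 and GBP2 were at the floor in the Twist line, so their differences of -2.19, -1.92, -1.86 and -1.25 are bounds. Higher in Twist cells were IFI35 at 1.67, IFIT5 at 1.46, GBP1 at 1.36, and IFI44L by at least 1.67. Other GBP1 probe sets above the floor gave -0.02 and 0.08, and the other IFIT5 probe set gave 0.77, all under the threshold. The Twist DMSO array is also the baseline of the Cmp302 comparisons, so a low value on it enters both. The RNA-quality contrast was 0.955 on the Twist array and 0.28 on the control-line array under DMSO, and its part in these differences was not tested.

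At 10 µM the order of the lines was turned round for some of these genes. Of 34 measured members 6 were higher in Twist cells past 2-fold, against 14.8% of all genes, and 8 were lower, against 14.1%. OASL was higher by 4.28, IRF1 by 3.06, IFI35 by 2.24, IFIT2 by 2.12, IFIT3 by 1.58 and PARP9, a partner of the DTX3L ligase, by 1.06. The other PARP9 probe set did not share this, with 4.71 in the Twist line and 4.75 in the control line at 10 µM. IFIT1, the second lowest under DMSO at -3.36, stood at 0.85. HERC6 at -3.07 and SAMD9 at -2.62 were lower at 10 µM as well, and so were GBP6 and OAS1, with bounds of -3.23 and -1.77. USP18 at -1.17 was lower as under DMSO, and GBP1 at -1.39, GBP3 at -1.22 and DDX60 at -1.15 were lower past 2-fold at 10 µM and not under DMSO.

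**Figure D5:**
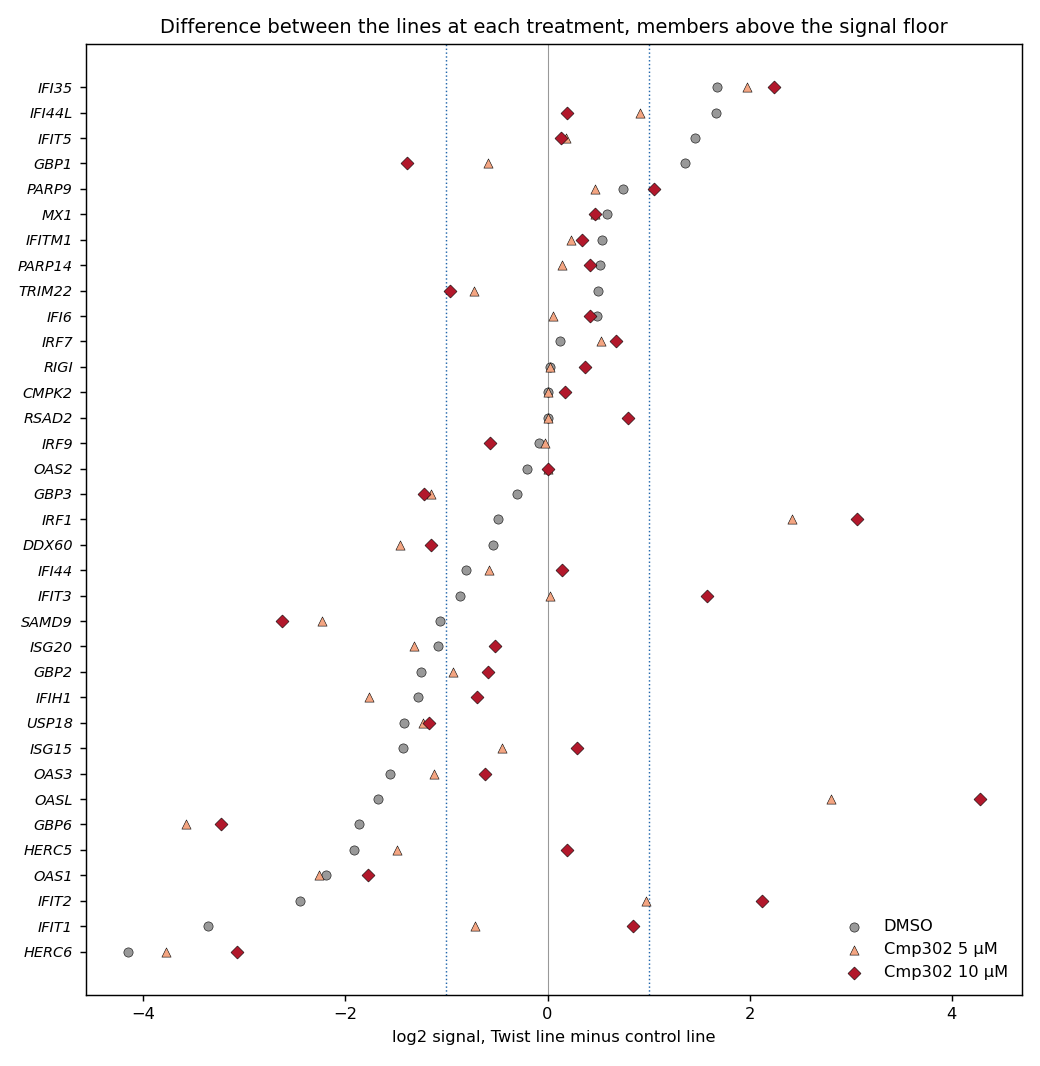
Difference in log2 signal, Twist line minus control line, under DMSO (circles), 5 µM (triangles) and 10 µM (diamonds), for the 35 members above the floor on any array, with dotted lines at 2-fold and no error bars. OASL is at -1.68 under DMSO and 4.28 at 10 µM, whereas HERC6 stays lower at all 3 treatments.

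Averaged over the 3 treatments, the line effect in limma was called for 12 of 32 members. IFI35 was higher in the Twist line by 1.96 ± 0.20 (SE, adjusted p = 0.00130) and MX1 by 0.51 ± 0.10 (adjusted p = 0.0145), 2 members against 13.7% of all genes. The 10 lower members stood against 14.9% of all genes. HERC6 at -3.67 ± 0.28 (adjusted p = 0.000449) and OAS1 at -2.08 ± 0.15 (adjusted p = 0.000363) had the widest effect and the smallest adjusted p among them. GBP6, SAMD9, USP18, IFIH1, OAS3, DDX60, ISG20 and GBP2 followed with effects from -2.89 to -0.93. OAS1 and GBP6 were at the floor on all 3 Twist arrays, and MX1 on all 3 control-line arrays. Their effects are thus bounds, and the floored side adds no spread to their standard errors, which can make an adjusted p smaller. GBP2 was at the floor on the Twist DMSO array. IFIT1, IFIT2, OASL and IRF1 were not called, and their differences between the lines had one sign under DMSO and the other at 10 µM. Without the DMSO pair limma called 22 of 32 members, IFIT2, IFIT3, IRF1 and OASL among them, and 58.0% of all genes, so the larger count is not particular to the members.

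The labelled cell type was checked by its markers, which were high in the control line and at or near the floor in most cases in the Twist line. Of 5 epithelial markers matched, all 5 were lower in the Twist line, with CDH1, EPCAM and KRT5 at the floor there, and their mean was 3.96 to 4.06 log2 units in the Twist line and 12.81 to 13.04 in the control line. The 6 mesenchymal markers averaged 12.55 to 12.72 in the Twist line and 8.37 to 8.41 in the control line. Under DMSO 5 of the 6 were higher past 2-fold in the Twist line, and FN1 hardly differed, at 13.49 against 13.24. Of 5 white blood cell markers matched, CD14 alone was above the floor, at 3.99 in Twist cells under DMSO and at 4.81, 4.46 and 4.35 in the control line, and PTPRC, CD3E, LYZ and HLA-DRA were at the floor on every array. The mean of the 5 was 3.71 to 3.77 in the Twist line and 3.84 to 3.93 in the control line. PECAM1, the endothelial adhesion molecule, had 7.64, 7.20 and 7.54 in the Twist line and 4.05, 3.82 and 3.80 in the control line, while VWF and CDH5 were at the floor. The part of these differences in the member differences between the lines was not tested.

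Genes upstream of the members were read from lists of the same pathway. Among 9 interferon ligands matched, 8 were at the floor on all 6 arrays, IFNB1 among them, and IFNE, an epithelial interferon, had 3.80, 4.14 and 4.25 in the control line. All 6 receptor genes were above the floor. IFNLR1, the receptor for type III interferon, did not exceed the floor on any Twist array and had 9.39, 9.59 and 9.76 in the control line. IFNAR2, a chain of the type I receptor, fell with level in the Twist line, with 10.74, 9.88 and 9.70 against 9.94, 9.95 and 9.93 in the control line. Of 10 signalling genes, 1 rose and 2 fell in the Twist-line trend, near the shares of all genes, 10.8% and 11.4%. JAK1, the kinase shared by the interferon receptors, rose, with 10.54, 11.54 and 11.66 in the Twist line and 11.26, 11.07 and 10.90 in the control line. TLR3, a sensor of double-stranded RNA, had 9.20, 8.39 and 8.16 in the Twist line and 7.45, 7.41 and 7.30 in the control line and fell. TBK1, the kinase of IRF3, fell too, with a change of -0.91 at 10 µM. Under DMSO the Twist line differed from the control line past 2-fold in TLR3 at 1.75, MAVS at 1.15, TYK2 at 1.05 and IRF3 at -1.49.

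Among 5 inhibitors of the pathway, 1 fell and 0 rose, a count too small to set against the 11.4% and 10.8% of all genes. IRF2, which opposes IRF1 at shared sites, fell, with 10.81, 9.52 and 9.30 in the Twist line and 9.91, 9.99 and 9.82 in the control line. PTPN6 and PTPN2, phosphatases that act on JAK kinases, were lower in the Twist line under DMSO by -2.78 and -1.15. A list of 38 other interferon-stimulated genes had 36 matched and 28 above the floor. In the Twist-line trend 1 of the 28 rose and 1 fell, where 10.8% and 11.4% of all genes did, and their median change at 10 µM was 0.13. TRIM25, the ligase that activates RIG-I, rose, with 10.68, 11.60 and 12.00 in the Twist line and 11.41, 11.29 and 11.31 in the control line. PARP10 fell, with a change of -0.70 at 10 µM. PARP12 was higher past 2-fold at both levels, at 1.04 and 1.15, and missed the threshold of the limma fit with adjusted p = 0.0734. TNFSF10, the death ligand TRAIL, did not exceed the floor on any Twist array and had 7.21, 7.51 and 8.45 in the control line, where it was higher by 1.25 at 10 µM.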

How the data were processed

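RNA from the 6 groups was measured on 1 array each. The table deposited by the authors holds log2 signals, a unit inferred from its values as no label names it. Per the submitters' processing notes GCOS 1.2 was used; background correction, summarisation and normalisation are not given in the sources used here. Of 54675 probe sets, 62 controls were left out, 41091 had 1 symbol, 1801 several and 11721 none. Arrays were shifted by -0.03 to 0.01, values under the floor of 3.71 were set to it, and a gene was read by its brightest probe set. Levels of different probe sets are not comparable. Differences between arrays carry no test. Trends and line effects were fitted with limma 3.58.1 in R 4.3.3 over 12478 genes that 2 or more arrays showed above the floor, with 2 residual degrees of freedom, at an adjusted p of 0.05; the fits were tested on simulated data. The p-values set a slope, a difference of slopes or a line effect against departures from the model, not against replicate spread. Named genes were members past 2-fold in the Twist line or between lines under DMSO, or called in a fit. Other lists were ligands, receptors, signalling, inhibitors, other interferon-stimulated genes, and epithelial, mesenchymal, white blood cell and endothelial markers. Members and lists were chosen with earlier results of these data known. Alternatives covered scaling, floor, probe set, filter, level coding, quality matching and left-out arrays; those with other baseline arrays were added after seeing the data. Sequences are RefSeq's, GRCh38.p14.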

Additional observations from a re-analysis of the deposited data

Results flagged for a closer look

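The response to Cmp302 differed between the Twist line and the control line for 4 members by the limma test of the difference of slopes. The difference in log2 units per level, Twist minus control, was 2.10 ± 0.23 for IFIT1 (SE, adjusted p = 0.0361) and 1.22 ± 0.15 for IFIT3 (adjusted p = 0.0386). It was -0.74 ± 0.08 for IFI44L (adjusted p = 0.0375) and -1.38 ± 0.21 for GBP1 (adjusted p = 0.0480). Control-line values of IFI44L were all set to the floor, so its slope and residuals there are 0 by construction. Its test therefore does not compare 2 measured responses. On the probe sets that read them, IFIT1 and IFIT3 were highest on the Twist array at 10 µM, and IFI44L and GBP1 on the Twist array under DMSO. On another GBP1 probe set the control-line array under DMSO was slightly higher than the Twist one, at 7.80 against 7.78. The GBP1 call was lost with the deposited scaling, the median over probe sets, the floor at the 65th percentile or no filter. IFIT3 was not called with that floor, with no filter or with the levels coded 0, 1 and 1, and IFIT1 was not called with no filter. IFI44L was not called with that coding, and it lay under that floor on every array, so it was not tested there. None of the 4 was called when any array but the Twist array at 5 µM was left out, where 0% of all genes were called. IFIT3 was not called without the Twist array at 5 µM either.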

How the results depend on the processing

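No paired analysis was possible because each group has 1 array and the labels give no replicate numbers. The count of members higher in the Twist line at 5 µM and at 10 µM was 4 to 6 and 6 to 9 under every scaling, floor, probe set and quality setting run. With the floor at the 65th percentile of all values, the members lower in Twist cells under DMSO numbered 8, and the median change at 10 µM was 0.57. With that floor limma called 1 of 22 members in the difference of slopes, against 0.423% of all genes. It called 6 of 22 in the line effect, against 23.5%. Set on the 10 µM arrays of both lines, chosen after seeing the data, the lower count was 8. The difference of slopes was called for 10 members with the floor at the 35th percentile, where 3.15% of all genes were called, and for 10 with the levels coded 0, 1 and 1, where 26.4% were, against 1.52% as reported. With no filter on low signals limma called 1 member in the Twist-line trend, IFI44L, against 0.0809% of all genes. An unadjusted p under 0.05 in that limma fit was reached by 17 members and by 4199 of 19775 genes. Limma also called 1 member in the difference of slopes, against 0.0506% of all genes, and 5 in the line effect, against 10.5%. With the filter these shares of all genes were 22.2%, 1.52% and 28.5%. Over fits without 1 array, the calls ranged from 0 to 15 in the Twist-line trend and from 0 to 8 in the difference of slopes. The 0 came when any array but the Twist array at 5 µM was left out, where 0% of all genes were called. Without the Twist array at 5 µM, 25.9% of all genes were called in the trend and 17.6% in the difference. Over fits without 1 treatment pair, the line effect was called for 9 to 22 members, the 22 without the DMSO pair, where 58.0% of all genes were called. The control-line trend had 0 member calls in limma under every setting, with 2 to 5 members and 685 to 2556 of all genes at an unadjusted p under 0.05. Of single-member changes at 10 µM, 191 of 205 values kept their direction and side of the threshold, 7 passed it and 4 no longer did. The other 3, all under the threshold, changed sign: OAS3 at -0.10 and GBP2 at -0.54 when quality-matched, and PARP14 at -0.01 by the median over probe sets. Some of the 205 values could not move, so the 191 include values fixed in advance. A change of floor does not touch a member well above the floor on both arrays. The median over probe sets leaves a member with 1 probe set as it is. Quality matching leaves a member at the floor throughout the control line as it is. IFI44 gave 1.02 to 1.71 and RIGI 1.83 and 1.97 under other probe sets or scaling, RSAD2 gave 1.62 with the lower floor, and IFIT5 gave -0.35 by the median over probe sets.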
